A study of Mus musculus with 9 samples.

Results

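H3K27ac was examined at 9 genes of MHC class I antigen processing and transactivation in naive CD8+ T cells with and without Tcf1 and Lef1. The genes were taken by name, with no limit on their values: B2m, Tap1, Tap2, Tapbp, Psmb8, Psmb9, Erap1, Nlrc5 and Ciita. All 9 were found in the mm9 annotation, which holds 37131 genes, 22284 of them protein-coding, and 8 of the 9 are annotated as protein-coding. Nlrc5 is annotated there as a long noncoding RNA. H3K27ac ChIP-seq measures acetylation of lysine 27 of histone H3, a mark of active promoters and enhancers, and not transcript or protein levels.

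MHC class I molecules show peptides from inside the cell to CD8+ T cells, and nearly every nucleated cell carries them. Each is a heavy chain paired with the light chain B2m. Peptides are cut by the proteasome, moved into the endoplasmic reticulum by the TAP transporter, trimmed by Erap1 and loaded with the help of tapasin. Nlrc5 is the transactivator of class I genes and Ciita the transactivator of class II genes, and neither binds DNA by itself. Class II molecules are carried by B cells, dendritic cells and other professional antigen-presenting cells.

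The WT group (4 samples) and the dKO group (3 samples) were sort-purified from the spleen, and 1 input sample was taken per genotype, 9 samples in all. WT mice carried hCD2-Cre, the Rosa26 GFP reporter and unfloxed Tcf7 and Lef1, where Tcf7 encodes Tcf1. The dKO mice carried hCD2-Cre, the same reporter and floxed Tcf7 and Lef1 alleles. The Cre transgene and the reporter were thus shared by both groups. hCD2-Cre acts mostly in mature T cells and does not excise in every cell, so GFP+ cells were sorted to mark those in which Cre had acted. The mice were on the C57BL/6 background and 6 to 12 weeks old, and both sexes were used. The sorted phenotype was GFP+, TCRbeta+, CD62Lhi, CD44lo-med and CD8+.

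The authors pooled the replicates of a genotype before they called islands, which are stretches enriched for H3K27ac. Each genotype therefore has 1 list of islands with a read count for each, and no spread between replicates can be had from it. Whether the replicates came from separate mice is not stated in the labels. No p-value is given, and all intervals (95%, Wilson-based for ratios and exact Poisson for levels) reflect counting error alone. There were 65563 WT islands with 82668007 counts over 393 Mb, and 82213 dKO islands with 57665047 counts over 429 Mb. Counts were divided by the total of their list and multiplied by 1000000, which is called CPM below. Ratios that reached 1.5, up or down, were counted as past the fold. A count grows with the width of its island, so counts per covered kb are given beside counts.

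Among markers of naive CD8+ T cells, 8 of 8 had a promoter island in both lists, with summed levels of 2012 CPM in WT and 1351 CPM in dKO. These sums count an island once for each gene it serves, and the Cd3 genes share islands, as do Cd8a and Cd8b1 in WT. Of other cells' markers, 2 of 2 for CD4 T cells had one in both lists (59.0 CPM in WT and 76.6 CPM in dKO), and Ncr1 and Hbb-b1, which mark NK and erythroid cells, had none in either. Islands over Tcf7 and Lef1 held 761 and 768 CPM in WT and 855 and 626 CPM in dKO, which measures acetylation over the whole window and does not check the deletion. In pooled chromatin, fewer cells that carry a mark and less of the mark per cell cannot be told apart.

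Over the gene body to 50 kb upstream of the transcription start site (TSS), all 9 members held islands in both lists, and Ciita was the 1 member past the fold. Its window held 115 CPM in WT and 54.0 CPM in dKO. The other 8 members had log2 dKO/WT ratios of window counts between -0.40 (Erap1) and 0.30 (Psmb9). With islands counted whole, also where they reach past the window, Tap2 had the highest window level in both lists, 304 CPM in WT and 289 CPM in dKO. Erap1 had the lowest, 56.3 CPM in WT and 42.6 CPM in dKO. With islands clipped to the window, Tap1 was above Tap2, at 14275 against 13550 counts in WT and 9763 against 9030 in dKO. Ciita was then below Erap1 in dKO, at 2311 against 2456 counts. Of the 16414 protein-coding genes that had islands in each list, 11.5% were past the fold downward and 11.5% upward. The count of 1 lower and 0 higher among 9 members is near that background. The log2 ratio was above 0 in 3 members and below 0 in 6, while 47.5% and 52.5% of all genes were on these sides. The median of the members was -0.08, and that of all genes was -0.03. Tap1, Tap2 and Psmb8 shared most of their window counts, so the 9 members are not separate measurements. The members' median was the value of Psmb8.

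**Figure D1:**
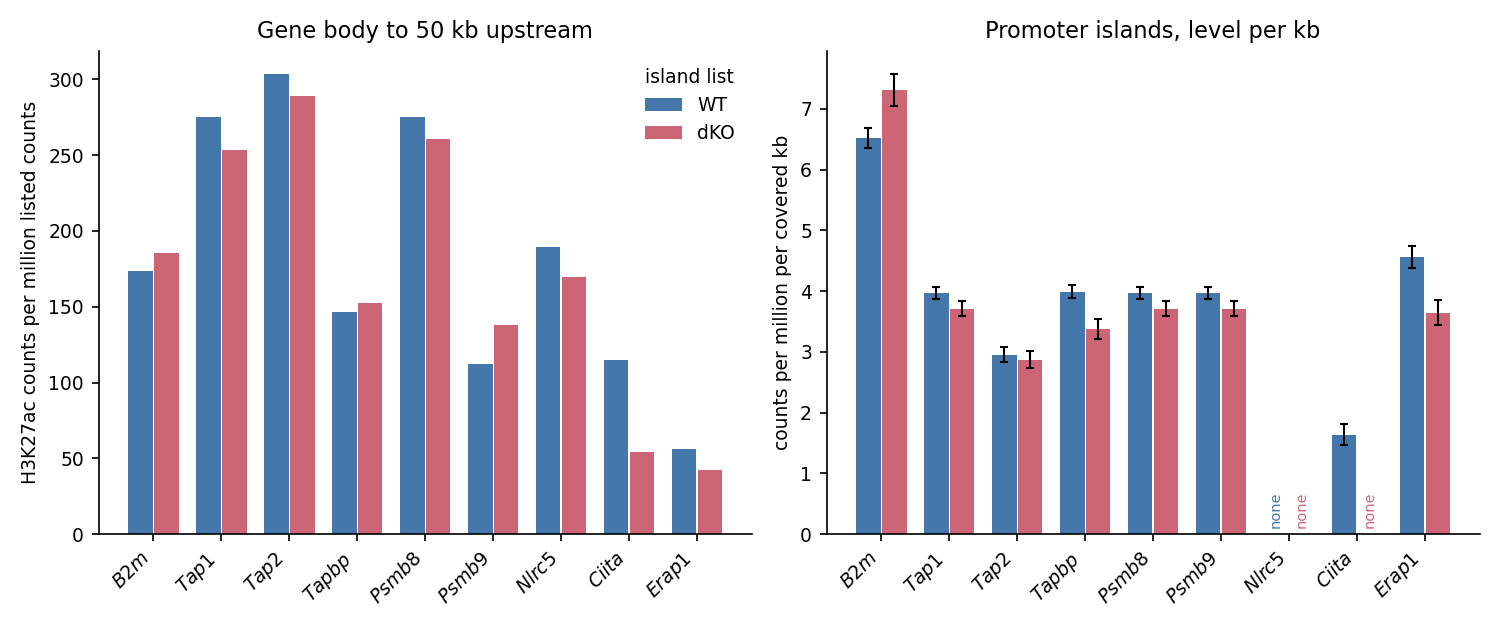
Left, H3K27ac counts scaled by the list total (CPM) over the gene body to 50 kb upstream for each member in the WT and dKO lists, 1 pooled value per list with no error bar; right, CPM per covered kb of the promoter islands, with exact 95% Poisson intervals for counting error. Ciita differs most in the left panel (115 against 54.0 CPM), B2m has the highest promoter level per kb in both lists, and Tap1, Psmb8 and Psmb9 share 1 promoter island.

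Per covered kb, no member was past the fold over its window. The log2 ratios of window counts per kb lay between -0.31 (Tapbp) and -0.06 (Tap2), with Ciita at -0.24. They were below 0 in 9 of 9 members, as they were in 79.4% of all genes (20.6% were above 0), and 0.420% and 9.28% of all genes were past the fold upward and downward. The medians were -0.19 for the members and -0.16 for all genes.

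At promoters, 7 of the 9 members had an island within 1 kb of an annotated TSS in both lists. Ciita had one in the WT list alone, and Nlrc5 had none in either list. Of all protein-coding genes, 62.9% had a promoter island in the WT list and 63.3% in the dKO list, and of those with one in either list 3.53% had it in the WT list alone and 4.08% in the dKO list alone. By counts, Tapbp was the 1 member past the fold, at a log2 ratio of -1.07, and 19.9% of 13505 genes were past it in that direction and 13.1% in the other. The ratio of promoter counts was below 0 in 6 of the 7 members and above 0 in Tap2, beside 66.4% and 33.6% of all genes. Per covered kb, 0 of 7 members were past the fold, against 17.4% of all genes downward and 2.11% upward. The log2 ratio per kb was below 0 in 6 of the 7 and above 0 in B2m, beside 72.0% and 28.0% of all genes, with a median of -0.10 for the members and -0.20 for all genes. Tap1, Psmb8 and Psmb9 had the same promoter island, so the 7 members are not separate measurements. The members' median per kb was the value of that island.

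**Figure D2:**
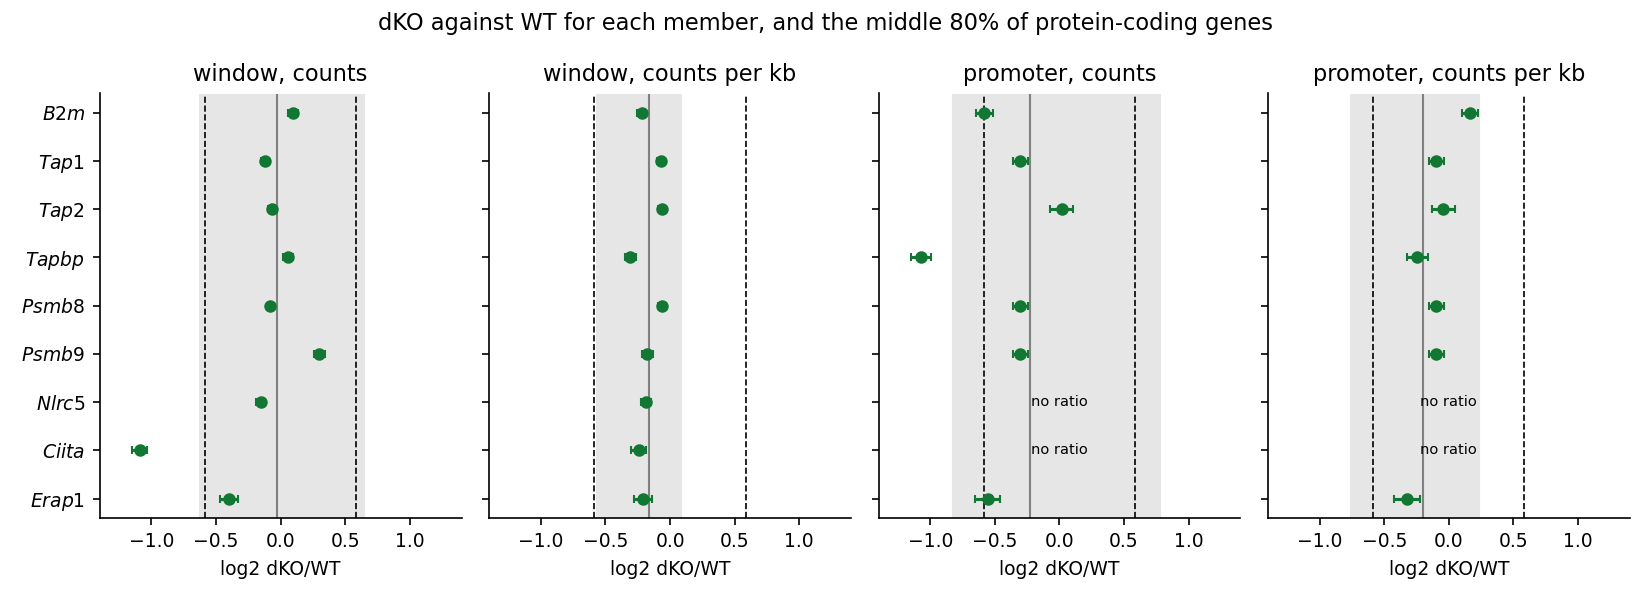
Log2 dKO/WT ratio of each member (points, with 95% Wilson-based intervals for counting error) for window counts, window counts per covered kb, promoter island counts and promoter counts per covered kb. The grey band spans the middle of protein-coding genes from the 10th to the 90th percentile, the grey line is their median and dashed lines mark a ratio of 1.5; Ciita (window counts, -1.09) and Tapbp (promoter counts, -1.07) lie left of the dashed line, and no member does so per kb.

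B2m, the light chain shared by class I molecules, had the densest promoter island of the members in both lists. It lies on chromosome 2 (121973422 to 121978819, plus strand). The WT promoter island was 11.4 kb wide with 6145 counts, and the dKO island was 6.8 kb wide with 2865. These are levels of 539 counts per kb in WT (interval 526 to 553) and 421 in dKO (406 to 437). After scaling, the level was 6.52 CPM per kb in WT and 7.31 CPM per kb in dKO. The island was thus slightly denser in dKO, by 0.16 (0.10 to 0.23) on the log2 scale. The B2m island was denser than the promoter islands of 85.6% of genes in WT and of 96.2% in dKO. The scaled count ratio was -0.58 (-0.65 to -0.52), just inside the fold.

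The narrower dKO island at B2m stood between further dKO islands, with 226 counts over 2 kb on its upstream side and 1700 counts over 12.6 kb that began at the gene's 3′ end and reached Trim69. With islands of both lists merged where they touched, the B2m promoter region held 7718 counts in WT and 4791 in dKO, or -0.17 (-0.22 to -0.12) as a log2 ratio of counts and -0.30 per kb. With islands of a list within 1 kb of each other joined, the B2m promoter ratio was 0.14 (0.09 to 0.19) by counts and -0.56 per kb, so both directions at B2m turned with how islands were delimited. An island 12.2 kb upstream, at the promoter of Spg11, held 43.2% of the WT and 37.5% of the dKO window counts, with 6206 counts in WT and 4019 in dKO (log2 -0.11).

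The stretch upstream of B2m is shown because it carries, within its island, matches to more of the searched motifs than any other member's promoter. It is chr2:121973173-121973421 of mm9, plus strand, from RefSeq, and lies within an intron of the gene Patl2 on the opposite strand, just before the annotated B2m exon. Capitals mark, in order, an interferon-stimulated response element (ISRE, searched as GAAA, 2 bases of any kind and GAAA), an X2-type element (TGACG) and the reverse complement of a Y box core (CCAAT).

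B2m: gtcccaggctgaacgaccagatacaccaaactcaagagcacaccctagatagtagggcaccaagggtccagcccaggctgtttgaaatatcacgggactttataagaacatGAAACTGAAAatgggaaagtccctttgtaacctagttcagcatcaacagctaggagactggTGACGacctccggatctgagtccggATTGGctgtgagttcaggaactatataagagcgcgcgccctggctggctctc

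Distances from the RefSeq start, counted as 0, were -139 to -130 for the ISRE, -78 to -74 for the X2-type element and -53 to -49 for the Y box core. All motifs were searched on both strands, in 250 bases before to 50 after each RefSeq start. The share of 21263 protein-coding promoters with a match was 3.35% for the ISRE, 23.6% for the X2-type element and 38.2% for the Y box core. RefSeq entries were matched for 6 of the 9 members (not Tap2, Nlrc5 and Ciita). The 6 were placed on mm9 by exact match of 300 bases, and each start fell in the promoter island counted for that gene. An ISRE was found in B2m and Erap1, an interferon-gamma activated site (GAS, TTCNNNGAA; 7.69% of promoters) in Psmb8, and a Tcf/Lef core (CTTTGAT or CTTTGAA; 7.57% of promoters) in 0 of 6. The Y box core was found in 4 of 6 (B2m, Tap1, Tapbp and Psmb9) and the X2-type element in 3 of 6 (B2m, Tap1 and Psmb9). A second X2-type match in B2m, from 44 to 48, lay past the stretch shown. A match is a description of letters and not of binding.

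Tap1 and Tap2 encode the paired subunits of the peptide transporter, and Psmb8 and Psmb9 the immunoproteasome subunits that replace constitutive subunits after interferon. These 4 genes lie side by side on chromosome 17, Psmb9 (34318932 to 34324709, minus strand), Tap1 (34324498 to 34334170), Psmb8 (34334666 to 34338399) and Tap2 (34340472 to 34353266), the last 3 on the plus strand. The RefSeq starts of Psmb9 and Tap1 are 226 bp apart and point away from each other. A single island covered the starts of Psmb9, Tap1 and Psmb8 in each list, so their promoter values are 1 measurement and not 3. In WT it spanned 19.6 kb with 6438 counts, and in dKO 17 kb with 3640. The log2 ratio was -0.30 (-0.36 to -0.24) by counts and -0.10 (-0.16 to -0.04) per kb. In dKO, a separate island of 429 counts followed after a gap, over the 3′ part of Psmb8. With it, the merged region gave 6438 and 4069 counts, a log2 ratio of -0.14 by counts and -0.11 per kb.

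Tap2 had its own promoter island, with 2344 counts over 9.6 kb in WT and 1654 over 10 kb in dKO. Its log2 ratio was 0.02 (-0.07 to 0.11) by counts and -0.04 (-0.13 to 0.05) per kb. Both intervals included 0. With a promoter of 2 kb either side of the TSS, the WT list added the neighbouring island of Psmb8 to Tap2 while the dKO list added a smaller one, and the log2 ratio of counts was -1.56.

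The windows of these 4 genes overlapped. In WT, Tap1 and Psmb8 shared all 6 islands of their windows, and 90.7% of the Tap2 counts were also counted for Tap1. Most of the Tap1 window, 55.3% of its counts in WT and 57.4% in dKO, was 1 island 30.5 kb upstream, over Brd2 and the class II genes H2-DMa, H2-DMb1 and H2-DMb2. Psmb9 faces the other way, and its window took in the Tap2 promoter and an island toward H2-Ob. That island was 2.6 kb wide with 476 counts in WT and 12.2 kb wide with 1884 in dKO, where it reached past the window, and with it Psmb9 had the highest window ratio of the members, 112 CPM in WT and 138 CPM in dKO (log2 0.30, 0.25 to 0.34). With islands merged, the Psmb9 ratio was 0.06, and with 10 kb upstream, where the shared promoter island alone is left, it turned to -0.30 (-0.36 to -0.24).

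Short sites of Tap1 and Psmb8 are shown as examples of the motif classes in the shared island, each with its match in capitals. The Tap1 site is an X2-type element at chr17:34324403-34324431 of mm9, 86 to 82 bases before the RefSeq start of Tap1, in an annotated untranslated exon of a longer Psmb9 transcript. The Psmb8 site is a GAS at chr17:34335033-34335061, 97 to 89 bases before the RefSeq start of Psmb8, where both strands match, in an annotated untranslated exon of that gene. Both are printed on the plus strand.

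Tap1: cccagagacaggTGACGacagagggtcct
Psmb8: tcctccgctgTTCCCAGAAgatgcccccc

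Tapbp encodes tapasin, which tethers class I molecules to the TAP transporter during loading. It lies on chromosome 17 (34052844 to 34066235, plus strand). Its promoter island, which also covered starts of Daxx and Zbtb22, had 5281 counts across 16 kb in WT and 1751 across 9 kb in dKO. The scaled levels were 63.9 CPM in WT and 30.4 CPM in dKO, a log2 ratio of -1.07 (-1.15 to -0.995). In dKO the stretch of the WT island was listed as 2 islands, and the one not counted at the promoter, over Daxx, had 1701 counts over 6.8 kb. With both counted, the region held 5281 counts in WT and 3452 in dKO, or -0.09 (-0.16 to -0.03) as a log2 ratio of counts and -0.08 per kb. The Tapbp promoter was thus past the fold only as long as the split dKO island was counted in part. Over the whole window, the ratio was 0.05 by counts and -0.31 per kb, with 41.6 kb covered in WT and 53.4 kb in dKO.

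**Figure D3:**
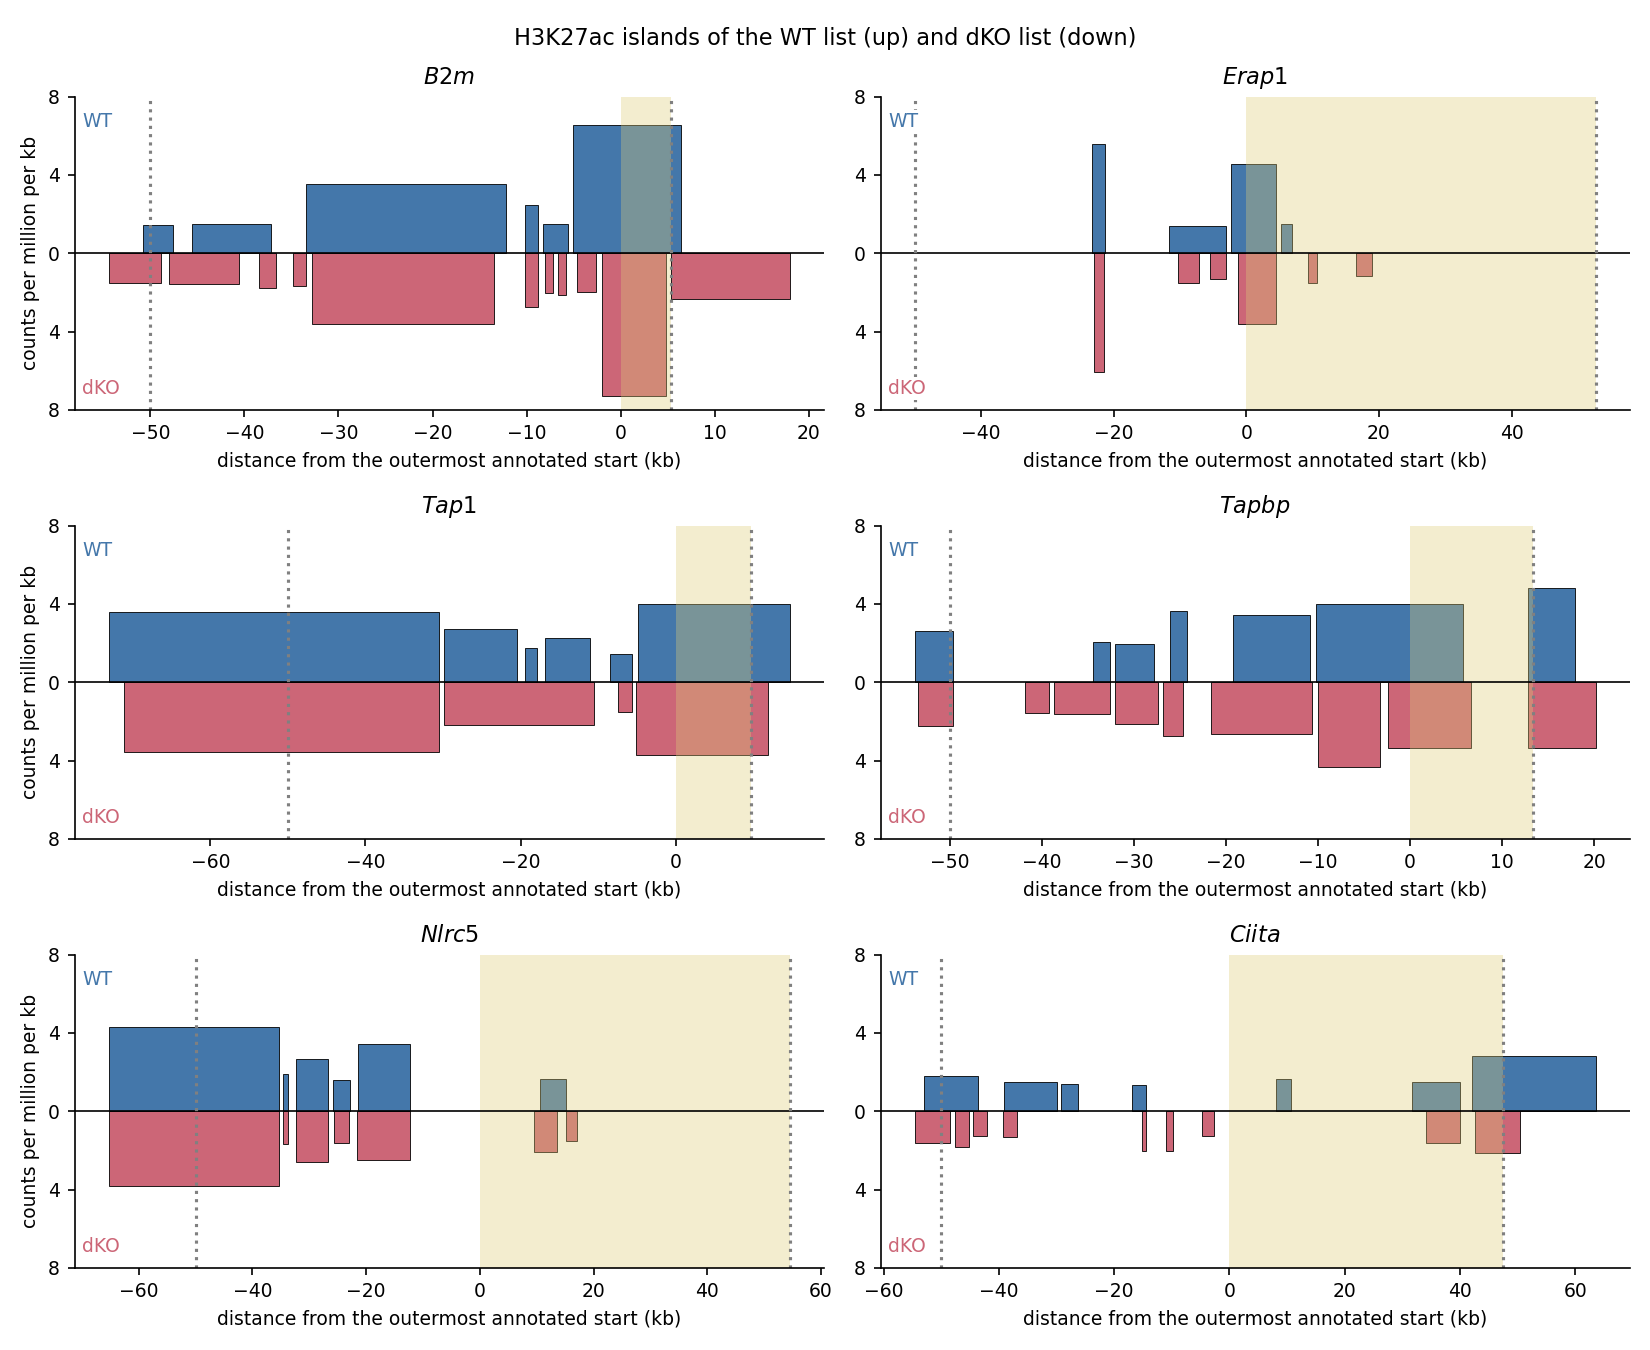
Islands around 6 members as bars against the distance from the outermost annotated start (kb), with WT upward and dKO downward and height in CPM per kb; the shaded stretch is the gene body and dotted lines mark the window. Tap1 stands for its cluster. The dKO island at B2m is narrower and slightly taller, the WT island at Tapbp is split in dKO, and the WT island over the 3′ end of Ciita reaches far past the window, while the second dKO island there lies outside the window and is not drawn.

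Erap1, the aminopeptidase that trims peptides in the endoplasmic reticulum, lies on chromosome 13 (74777320 to 74829983, plus strand). At its promoter, WT had 2565 counts in a 6.8-kb island and dKO had 1218 counts in a 5.8-kb island. The levels were 31.0 and 21.1 CPM, and the log2 ratio was -0.55 (-0.65 to -0.46) by counts and -0.33 (-0.42 to -0.23) per kb. Per kb this was the lowest ratio of the 7 members by islands as listed, at the 36.9th percentile of all genes, and merging left it as it was. With islands of a list within 1 kb of each other joined, it turned to 0.58 per kb, the highest of the 7, and was -1.10 by counts. A 2-kb WT island 21.3 kb upstream held 920 counts, or 460 per kb, more per kb than the promoter island at 377. In dKO it held 490 counts over 1.4 kb, or 350 per kb, against 210 at the promoter. Its log2 ratio was -0.39 by counts and 0.13 (-0.03 to 0.28) per kb. No annotated gene start lay in it.

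The Erap1 stretch is shown because its ISRE lies across the RefSeq start, from -4 to 5. It is chr13:74777051-74777306 of mm9, plus strand, upstream of the first annotated exon and in no annotated gene of GENCODE, whose start is 19 bases further on. Capitals mark the ISRE, which reads on the minus strand.

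Erap1: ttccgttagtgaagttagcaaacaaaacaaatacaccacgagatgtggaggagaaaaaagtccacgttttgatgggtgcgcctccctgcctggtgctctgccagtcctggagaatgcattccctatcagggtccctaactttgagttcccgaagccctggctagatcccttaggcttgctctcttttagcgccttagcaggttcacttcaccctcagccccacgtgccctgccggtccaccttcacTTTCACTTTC

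In order of promoter level per kb, WT gave B2m (539 counts per kb), Erap1 (377), Tapbp (330), the shared island of Tap1, Psmb8 and Psmb9 (328), Tap2 (244) and Ciita (135). Tapbp and the shared island had overlapping counting intervals, and the other neighbours in this order did not. In dKO the order was B2m (421), the shared island (214), Erap1 (210), Tapbp (195) and Tap2 (165). There the intervals of the shared island and Erap1 overlapped, as did those of Erap1 and Tapbp. B2m stood first in both lists, and Tap2 last among the islands that both held. The lead of B2m and the dKO order depended on how islands were delimited. Over merged regions, B2m had 394 counts per kb in WT beside 377 at Erap1. In dKO, merged regions gave B2m 224, Tapbp 218, the shared island 212 and Erap1 210.

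Nlrc5, the class I transactivator, had no promoter island in either list and a window much alike in both. It lies on chromosome 8 (96996663 to 97051172, plus strand). The window held 15629 counts in WT and 9789 in dKO, or 189 and 170 CPM, with a log2 ratio of -0.16 (-0.19 to -0.12). A 30-kb island with the same borders in both lists held 67.9% of the WT and 67.5% of the dKO window counts, 10614 in WT and 6610 in dKO (log2 -0.16). It lies 35.3 kb upstream of the annotated start and covers the start of 9330175E14Rik, a noncoding RNA on the opposite strand. The RefSeq table of a later assembly describes Nlrc5 as a protein-coding gene, so the start used here may not be its main one, and the absence of a promoter island holds for the annotated starts alone.

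Downstream of that island, 4 further regions upstream of the annotated Nlrc5 start were listed in both genotypes. With another start, they could lie inside the gene. The one nearest to the annotated start, 12.3 kb upstream of it, held 2599 counts in WT and 1349 in dKO. Its log2 ratio was -0.43 (-0.52 to -0.33) by counts and -0.46 per kb. The other 3 had ratios from -0.21 to -0.03, with intervals that included 0. Inside the gene, WT had 1 island of 634 counts and dKO had islands of 485 and 174 counts, and no island lay within 10 kb upstream. With a window of 10 kb upstream, these body islands gave a log2 ratio of 0.58 (0.42 to 0.73), and with 100 kb upstream it was -0.57, so that the sign at Nlrc5 turned with the window.

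Ciita, the class II transactivator, had the lowest window ratio of the members by counts of whole islands, but not per kb, where Tapbp was lower, nor over merged or joined islands, where Erap1 was (-0.40). It lies on chromosome 16 (10480237 to 10527657, plus strand). The window count was 9511 over 56.2 kb in WT against 3116 over 31.2 kb in dKO, which is -1.09 on the log2 scale (-1.15 to -1.03), at the 3.17th percentile of all genes. Per covered kb, the ratio was -0.24 (-0.30 to -0.18). The covered length differed by -0.85 on the log2 scale, so the lower dKO count went with fewer covered bases more than with thinner islands.

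Of the WT count at Ciita, 52.7% came from 1 island over the 3′ end of the gene, with 5011 counts over 21.4 kb, which reached beyond the window to the Dexi promoter. In dKO this stretch was listed as 2 islands, and only the first, with 967 counts, touched the window. As a merged region it held 5011 counts in WT and 3093 in dKO, a log2 ratio of -0.18. The window ratio was -0.34 (-0.39 to -0.29) by counts and 0.04 per kb over merged regions, -0.67 (-0.74 to -0.60) with islands clipped to the window, and -1.29 and -0.87 with 10 and 100 kb upstream. Ciita was therefore lower in dKO by each of these counts, and past the fold in each but the merged one. Upstream of the gene, a region at Fam18a had 1131 counts across 9.2 kb in WT and 185 across 2.4 kb in dKO, with a log2 ratio of -2.09 by counts and -0.15 per kb.

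The promoter island of Ciita was listed in WT alone. It held 351 counts over 2.6 kb and lay 8164 bp inside the gene, over internal annotated starts, while no island covered the outermost start in either list. At 135 counts per kb it was denser than 42.0% of all WT islands, but than only 5.93% of those at promoters. An equal share of the dKO list would have been 245 counts, and 42.4% of dKO islands, of any width, held fewer. Islands were called by enrichment and not by total count, so this cannot show whether such an island would be listed. The absence of the Ciita island is a list entry and not a count of 0, and its reason was not tested. Of B cell markers, 5 of 6 had a promoter island in WT and 6 of 6 in dKO, with 297 and 415 CPM, and Pax5 was listed in dKO alone. Of dendritic and myeloid markers, 6 of 8 had one in both lists, with 120 and 101 CPM, and Xcr1 and Siglech had none. Their part in the Ciita values was not tested.

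Taken as regions rather than genes, the 9 windows held 43 merged regions when each was counted once. Of these, 32 were in both lists, 3 in the WT list alone and 8 in the dKO list alone. These are shares of 6.98% and 18.6%, beside 12.8% and 28.1% of all 76633 regions. Ciita held 2 of the WT-only and 2 of the dKO-only regions, and Erap1 held 1 and 2. Of the 32 shared regions, 1 was past the fold upward by counts and 2 downward, where 11.1% and 14.6% of 45322 shared regions were. The 2 lower ones were both upstream of Ciita. The higher one was at Kifc1 in the Tapbp window, with 302 counts over 1.8 kb in WT and 569 over 6 kb in dKO, and its ratio per kb was -0.30. Per kb, 1 region was higher and 0 were lower, where 1.17% and 4.51% of all shared regions were. It was a narrow one upstream of Ciita, with 265 counts in WT and 94 in dKO.

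The class I heavy chains, which B2m pairs with, were listed as 17 gene models. By window counts 4 of 16 with a ratio were higher past the fold and 0 lower, beside 11.5% of all genes each way, and the median was 0.05. Of the 4, 2 were models of H2-Q2 with overlapping windows, and H2-K1 had no promoter island in the WT list. The highest were H2-K1 (1.45) and H2-M5 (1.04) and the lowest H2-Q7 (-0.24) and H2-Q6 (-0.19). Per kb of promoter islands, 0 of 15 were higher and 2 lower, H2-Q10 (-0.80) and H2-Q8 (-0.72), while H2-T22 (0.19) and H2-T3 (0.17) were the highest. By that measure, 2.11% of all genes were higher and 17.4% lower. H2-K1 had its promoter island in the dKO list alone. Near copies make these genes uncertain, and at H2-Q6, H2-Q7 and H2-Q8 only 41.4%, 46.7% and 40.1% of 50-base stretches around the start occur once in the genome, compared with 97.6% at B2m.

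Among the constitutive and other proteasome genes, which Psmb8 and Psmb9 work with or replace, 1 of 7 was higher by window counts, Psmb10 (0.62), the third immunoproteasome subunit, and 0 lower. Psmb6 (0.39), Psme1 (0.01) and Psme3 (-0.33) were next at either end, and the median was 0.29. Per kb of promoter islands, Psmb5 was higher (0.68) and Psmb7 lower (-1.56), with Psme2 (-0.11) and Psmb6 (-0.47) next to them. Among chaperones of class I loading, 1 of 7 was lower by window counts, the lectin Canx (-0.84), and 0 higher, with Tapbpl (-0.16), Ganab (0.06) and Uggt1 (0.52) next at either end. Per kb of promoter islands, Calr was lower (-0.91), Tapbpl was at -0.26, Uggt1 at 0.09 and Hspa5 at 0.46. Beside both lists, 11.5% of all genes were past the fold each way by window counts. Per kb of promoter islands, 17.4% of all genes were lower and 2.11% higher.

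Of 10 class II genes that Ciita is known to act on, 0 were past the fold in either direction by window counts or per kb of promoter islands, and 10 of 10 had promoter islands in both lists. Their medians were 0.01 for window counts and -0.00 for promoter counts per kb. H2-DMa and H2-DMb2 had the same promoter island, with 12590 counts in WT and 8369 in dKO, on which the second median fell. Windows also overlapped among H2-Aa, H2-Ab1, H2-Eb1 and H2-Eb2, so the genes are not separate measurements. Among all genes, 11.5% were past the fold each way by window counts, and 17.4% were lower and 2.11% higher per kb of promoter islands. By whole promoter island counts, H2-Eb2 and H2-Aa were lower past the fold and H2-Oa higher, where 19.9% of all genes were lower and 13.1% higher. H2-Eb2 had 2050 counts over 14.4 kb in WT and 160 over 1.4 kb in dKO (log2 -3.16), H2-Aa had 1269 over 9.4 kb and 354 over 3.8 kb (-1.32), and H2-Oa had 2634 over 9.4 kb and 3283 over 17 kb (0.84). As at Ciita, these differences lay in the listed width, since their ratios per kb were 0.20, -0.02 and -0.02. The window ratios ran from -0.26 (Cd74, the invariant chain) and -0.02 (H2-Aa) to 0.30 (H2-Oa) and 0.32 (H2-Ab1). The promoter ratios per kb ran from -0.25 (H2-Ob) and -0.13 (H2-DMb1) to 0.11 (H2-Ab1) and 0.20 (H2-Eb2). H2-DMb1, H2-DMb2 and H2-Ob lie near the Tap and Psmb genes, and some of their islands were counted for both.

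**Figure D4:**
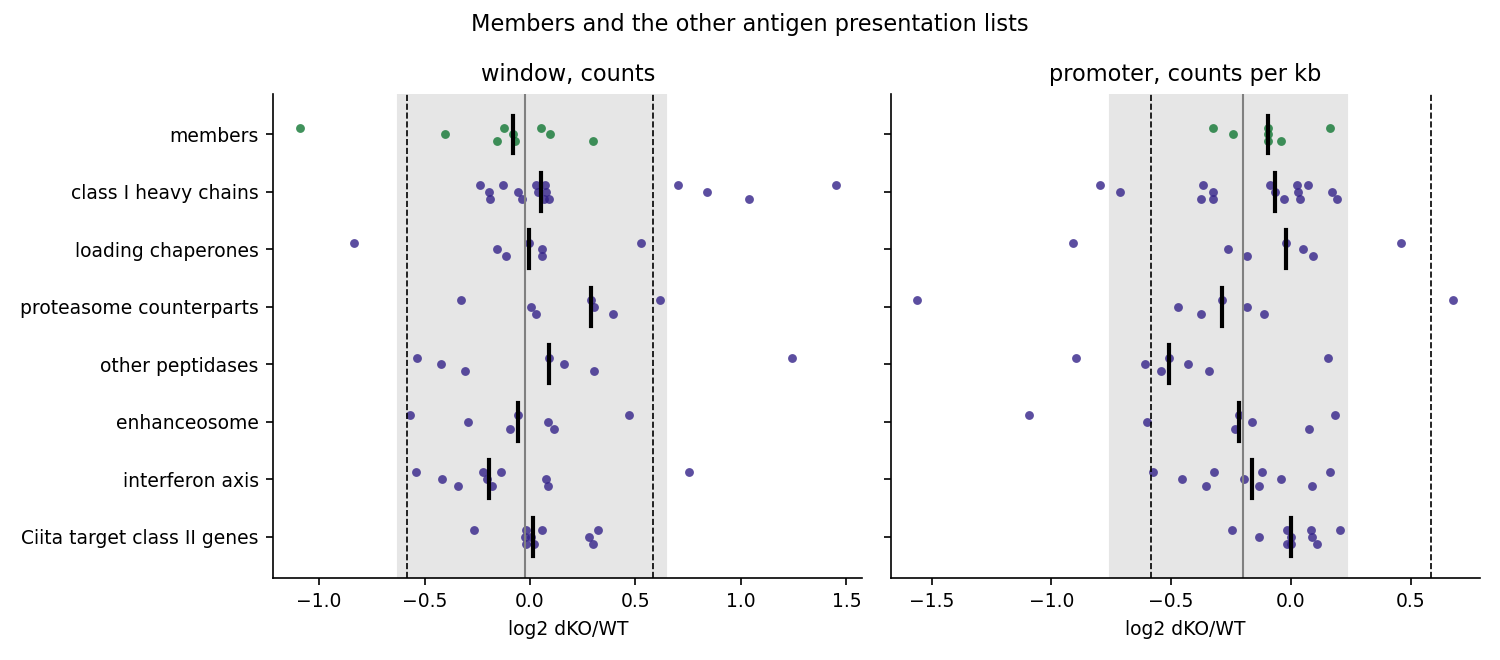
Log2 dKO/WT ratios of window counts (left) and promoter counts per covered kb (right) for the members and 7 other lists of antigen presentation genes; each point is 1 gene and the black bar is the list's median. The grey band spans the 10th to the 90th percentile of protein-coding genes, with their median as a line, and dashed lines mark a ratio of 1.5. The median of the members lies at -0.08 on the left and -0.10 on the right, and Ciita is the member far to the left.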

How the data were processed

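The authors pooled the H3K27ac reads of 4 WT and 3 dKO samples per genotype, aligned with Bowtie2 2.2.5 to mm9 (mapping quality above 10), and called islands by SICER 1.1 at a 200-bp window, a 400-bp gap and an FDR under 0.01. FastQC is also named in the submitters' processing notes. The deposited counts are whole reads per island, unscaled; inputs have no values of their own. Only listed islands have a count, so scaling by list totals (57665047 and 82668007) treats a difference in total enrichment as depth. Whether duplicates were removed is not given in the sources used here.

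Islands sharing at least 1 bp with a gene's window or promoter (GENCODE vM1, NCBIM37; overlapping models of 1 symbol joined) were summed whole in Python 3.11.15. Starts are counted from 1. The calculation of ratios was run on simulated lists that kept the WT island borders. Islands that split, widen or go unlisted were therefore not covered by it. Members and lists were chosen with earlier results of these data known. Named genes were the members, the 2 highest and 2 lowest of each list by window ratio and by promoter ratio per kb, genes with a promoter island in 1 list, and genes whose islands a window shares; the promoter counts of H2-Eb2, H2-Aa and H2-Oa, H2-D1 and single regions were described after their values were seen. Alternatives changed window, promoter, scaling, filter, fold and island joining.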

Additional observations from a re-analysis of the deposited data

How the results depend on the processing

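No paired analysis was possible because the deposited lists pool the replicates of a genotype, and for the same reason no replicate could be left out. Of the summary values recomputed under other settings, 61 stayed within their limits and 18 moved. Of the ratios of single members, 92 stayed within their limits and 101 moved. For a count of members the limit was a factor of 1.5. A count of 0 in both settings was within it, even where a stricter fold left no other outcome. For a single ratio the limit was the distance from the middle of its counting interval to an edge. For a median it was the members' median of that distance. The island shared by Tap1, Psmb8 and Psmb9 entered the single ratios once for each gene. Ciita and Tapbp, past the fold as reported, kept their direction in every setting that gave them a value in that measure. The number of members lower by window counts, 1 (Ciita), was 0 per covered kb, 2 at a laxer fold (Erap1 added), and 0 over merged regions or with islands within 1 kb joined, where the number higher was 1 (Psmb9, log2 0.64). The shares of all genes lower were 9.28% per covered kb, 24.2% at the laxer fold and 9.25% over merged regions. With joined islands, 11.9% of all genes were lower and 15.7% higher. Merging and joining were chosen after seeing the data. The median window ratio, -0.08, was -0.0091 when scaled by islands shared by the lists, -0.14 with 10 kb and -0.0012 with 100 kb upstream, -0.013 for islands with at least 200 counts and -0.19 per covered kb. The number lower by promoter counts, 1 (Tapbp), was 2 with 2 kb either side (Tap2 added), 3 at a laxer fold (B2m and Erap1 added) and 0 over merged regions. With joined islands it was 1, but Erap1 (-1.10) in place of Tapbp. By promoter counts, 41.3% of all genes were lower at the laxer fold, 10.5% over merged regions and 16.98% with joined islands. No such share is given for 2 kb either side. Per covered kb, the number lower at promoters was 1 at a laxer fold (Erap1) and the number higher 1 with joined islands (Erap1 again, turned to 0.58). By these measures, 37.2% of all genes were lower at the laxer fold and 2.12% higher with joined islands. B2m at its promoter and Psmb9 and Nlrc5 over their windows also turned, as given in the report. The median promoter ratio per kb, -0.10, was -0.027 with shared scaling, 0.10 when centred on all genes and -0.015 for islands with at least 200 counts. Scaling by shared islands raised every log2 ratio by 0.07. Merging and joining change, by construction, which parts of a split island are counted. The cause of the other moves was not tested. With 1 pooled list per genotype, counting error is the only error that can be given.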

Other observations

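H2-K1, the heavy chain of the K locus, had a dKO promoter island of 12831 counts over 10 kb, or 1283 counts per kb, denser than 99.9964% of dKO islands. The WT list had no island there. An equal share of the WT list would have been 18394 counts, and 99.7% of WT islands held fewer. Of the 50-base stretches under the dKO island, 85.9% occur once in the genome. The reason for the missing WT entry was not tested, and H2-D1, the other classical heavy chain measured, had promoter islands of 6817 counts in WT and 4563 in dKO, a log2 ratio of -0.06 by counts and -0.33 per kb.

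Of the interferon axis, 1 of 10 genes was higher past the fold by window counts, Irf1 (0.75), a factor induced by interferon-gamma, and 0 lower. Ifngr1 (0.09), Jak1 (-0.42) and Stat2 (-0.54) were next at either end, and the median was -0.19. Per kb of promoter islands, 0 of 10 were past the fold, from Stat2 (-0.58) and Jak2 (-0.45) to Irf2 (0.09) and Ifngr2 (0.16). Of the factors that bind class I and class II promoters with Nlrc5 and Ciita, 0 of 7 were past the fold by window counts, from Nfyc (-0.57) and Rfxap (-0.30) to Rfx5 (0.11) and Rfxank (0.47). Per kb of their promoter islands, Rfxank (-1.10) and Nfyb (-0.60) were lower and 0 higher, with Nfyc at 0.07 and Rfxap at 0.18. Of other peptidases, 1 of 7 was higher by window counts, Thop1 (1.24), and 0 lower, with Npepps at 0.31, Blmh at -0.42 and Lap3 at -0.53. Per kb, Blmh (-0.90) and Lnpep (-0.61) were lower and 0 higher, with Npepps at -0.34 and Nrd1 at 0.16. Across all genes, 11.5% were past the fold in each direction by window counts, and 17.4% were lower and 2.11% higher per kb of promoter islands.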
